A study of Homo sapiens with 4 samples.

Results

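The widest H3K9la regions of the sg3 arm, those of 5 kb or more, were described by the genes they cover, their place against genes and the part of each that also carried a peak in the V2 arm. H3K9la is histone H3 lactylated at lysine 9. All sg3 peak records on chromosomes 1 to 22 and X whose end lay at least 5 kb from their start were taken, which gave 745 of 55147 records, or 1.35% (exact Clopper-Pearson 95% interval 1.26 to 1.45). They held 5.94 Mb of the 53.3 Mb in the sg3 list, or 11.1%. They were chosen by their width in sg3, so their width, fold enrichment and significance in that list are given as a description. The V2 list took no part in the choice.

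The cells were KYSE30, an established line from an oesophageal squamous cell carcinoma grown in DMEM with fetal bovine serum. The labels list 4 samples, which are, in both the sg3 and the V2 arm, 1 ChIP library made with an anti-H3K9la antibody and 1 input. Neither the meaning of these arm names nor any genotype or treatment behind them is stated in the labels, while the series title names the deacylase SIRT3 as an eraser of H3K9la. The sg3 peaks are listed with the sg3 ChIP sample but the V2 peaks with the input of V2, so the label does not say from which V2 library the list was called. Each arm has 1 list and no replicate, so every comparison is between 2 libraries, without a test. Read depth is unknown, and the intervals on shares cover counting error only.

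Lactate made by glycolysis can be carried onto histone lysines, and lactylated histones are found at active promoters and enhancers. Long stretches of active histone marks in other settings often surround genes that define a cell type and their enhancer clusters. A peak caller splits or joins such stretches by the signal between summits, and it can bridge short gaps, so a wide record need not be above the threshold at every base.

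Most of the broad regions lay away from promoters. Sequence was read only at promoters, so the promoters inside broad regions that follow do not show what the rest of the regions hold. The first 4 are those of FOSB, JUNB, ZFP36 and ATF3, the immediate-early genes with an end inside a broad region. FOSB, JUNB and ATF3 encode bZIP transcription factors of the AP-1 and ATF families, and ZFP36 encodes an RNA-binding protein that speeds decay of cytokine mRNAs. The next 3 are S100A2, a calcium-binding protein of squamous epithelium, EGFR, the epidermal growth factor receptor, and MUC16, a membrane mucin, and these show an AP-1 match, a promoter rich in GC boxes and a start within one of the widest regions. Each sequence is from RefSeq on GRCh38.p14, runs 5′ to 3′ on the strand of the gene and spans 250 bases before to 50 after the transcript start. Capitals mark matches on either strand to AP-1 (TGANTCA), TEAD (GGAATG), the GC box (GGGCGG), the CCAAT box (CCAAT) and the TATA box (TATAAA), where overlapping matches run together.
FOSB promoter, chr19:45467746-45468045, plus strand: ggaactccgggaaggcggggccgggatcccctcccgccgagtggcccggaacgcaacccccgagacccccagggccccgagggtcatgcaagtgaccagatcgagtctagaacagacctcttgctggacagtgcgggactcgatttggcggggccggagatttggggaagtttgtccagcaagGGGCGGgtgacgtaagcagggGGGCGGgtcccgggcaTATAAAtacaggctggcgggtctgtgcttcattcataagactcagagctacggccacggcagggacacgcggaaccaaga
JUNB promoter, chr19:12791236-12791535, plus strand: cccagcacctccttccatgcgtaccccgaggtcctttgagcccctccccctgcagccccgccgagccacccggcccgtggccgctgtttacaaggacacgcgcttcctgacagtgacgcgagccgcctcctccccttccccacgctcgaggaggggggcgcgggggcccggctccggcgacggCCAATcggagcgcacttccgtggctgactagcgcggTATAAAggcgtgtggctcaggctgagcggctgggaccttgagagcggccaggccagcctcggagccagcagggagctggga
ZFP36 promoter, chr19:39406597-39406896, plus strand: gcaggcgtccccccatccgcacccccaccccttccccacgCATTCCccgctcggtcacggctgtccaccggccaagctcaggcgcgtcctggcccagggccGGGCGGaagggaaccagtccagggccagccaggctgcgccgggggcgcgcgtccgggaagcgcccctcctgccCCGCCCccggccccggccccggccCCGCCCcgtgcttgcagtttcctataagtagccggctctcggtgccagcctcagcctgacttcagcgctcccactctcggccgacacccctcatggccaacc
ATF3 promoter, chr1:212565157-212565456, plus strand: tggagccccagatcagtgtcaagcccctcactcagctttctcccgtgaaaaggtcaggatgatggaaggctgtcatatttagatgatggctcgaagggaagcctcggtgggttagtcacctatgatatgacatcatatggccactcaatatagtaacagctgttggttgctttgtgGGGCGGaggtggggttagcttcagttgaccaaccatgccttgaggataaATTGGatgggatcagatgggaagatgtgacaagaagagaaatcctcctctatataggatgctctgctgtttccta
S100A2 promoter, chr1:153565795-153566094, minus strand: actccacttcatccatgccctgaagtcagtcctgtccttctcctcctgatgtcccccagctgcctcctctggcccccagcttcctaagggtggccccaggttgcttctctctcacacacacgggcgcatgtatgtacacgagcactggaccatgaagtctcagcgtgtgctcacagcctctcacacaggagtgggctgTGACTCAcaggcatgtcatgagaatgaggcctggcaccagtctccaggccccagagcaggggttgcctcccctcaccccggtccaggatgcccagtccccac
EGFR promoter, chr7:55018767-55019066, plus strand: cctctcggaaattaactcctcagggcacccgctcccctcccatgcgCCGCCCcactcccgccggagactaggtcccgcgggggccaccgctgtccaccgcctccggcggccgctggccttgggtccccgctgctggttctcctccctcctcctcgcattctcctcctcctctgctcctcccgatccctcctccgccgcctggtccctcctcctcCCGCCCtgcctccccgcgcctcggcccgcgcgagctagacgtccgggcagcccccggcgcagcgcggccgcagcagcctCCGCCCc
MUC16 promoter, chr19:9065702-9066001, minus strand: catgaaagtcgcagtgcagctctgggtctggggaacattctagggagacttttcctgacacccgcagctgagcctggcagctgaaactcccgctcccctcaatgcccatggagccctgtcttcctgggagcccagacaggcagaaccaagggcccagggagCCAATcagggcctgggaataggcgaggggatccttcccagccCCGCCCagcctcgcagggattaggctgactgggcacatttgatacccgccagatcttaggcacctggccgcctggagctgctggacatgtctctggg
The FOSB window fell in its entirety between V2 records that ended at 45467687 and began again at 45468352. The JUNB and ZFP36 starts also lay in no V2 record, while those of ATF3, S100A2, EGFR and MUC16 lay in one.

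The broad regions ranged in width from 5003 to 30308 bases with a median of 6804, and the middle 50% lay between 5637 and 8926. Of them, 129 were at least 10 kb, 34 at least 15 kb, 14 at least 20 kb and 6 at least 25 kb. Fold enrichment at the summit, the ratio of ChIP pileup to the background that the peak caller estimated, is the authors' value and had a median of 11.3 (range 3.59 to 29.1), against 4.94 over all sg3 records. The median -log10 q, the authors' measure of significance, was 83.6 (range 9.78 to 201), against 13.0 over all sg3 records. Of the 100 sg3 records with the highest -log10 q, 51 were broad. The records just inside the threshold lay nearest to TEAD3 (5003 bases), EMP1 (5005 bases) and S100A11 (5005 bases), and V2 records covered 82.0%, 33.5% and 68.1% of them. Those just outside lay nearest to CCR7 (4999 bases), OLFML2A (4992 bases) and CUX1 (4991 bases), with 82.4%, 87.6% and 92.1% covered.

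The widest region, of 30308 bases at chr19:45439574-45469881, began in ERCC1, a subunit of a DNA repair nuclease, and reached into the first part of FOSB. Its fold enrichment was 12.8, with a -log10 q of 131. In V2 it was held by 6 records, the widest 12321 bases, which together covered 92.9% of it. The next, of 28570 bases at chr2:231601920-231630489, lay outside protein-coding genes, and 8 V2 records covered 91.0% of it. Its summit was 20493 bases from the nearest gene, TEX44. Here and below, a distance from a region to a gene runs from the sg3 summit to the near edge of the gene. The region itself can reach closer. The third, of 27706 bases at chr19:9047816-9075521, held a MUC16 transcript start, and 5 V2 records covered 94.9% of it. The fourth, of 27417 bases at chr1:202041551-202068967, lay 38511 bases from ELF3, an epithelial ETS factor, with 6 V2 records over 93.9% of it. The fifth, of 26308 bases at chr1:181117897-181144204, lay 41409 bases from IER5, an immediate-early response gene, with 5 V2 records over 86.5% of it. V2 thus held all 5 over most of their length, as several records in place of 1.

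The sixth, of 25889 bases at chr11:119679160-119705048, lay in the body of NECTIN1, a cell adhesion molecule, and had the highest fold enrichment of all broad regions at 29.1. V2 held it as 10 records over 89.1% of its bases. The others of the 10 widest were a region of 24919 bases that lay 39316 bases from TOMM20, one of 23975 bases around the whole of PWWP2B, one of 23639 bases in PLB1, and one of 23634 bases that lay 32276 bases from GPR37L1. Their V2 coverage was 94.3%, 80.6%, 86.5% and 78.1%, from 5, 11, 8 and 11 V2 records. Among the 10 widest, 5 had their summit outside protein-coding genes at more than 20 kb from the nearest. The widest reached into ERCC1 but had its summit 3801 bases outside it.

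**Figure D1:**
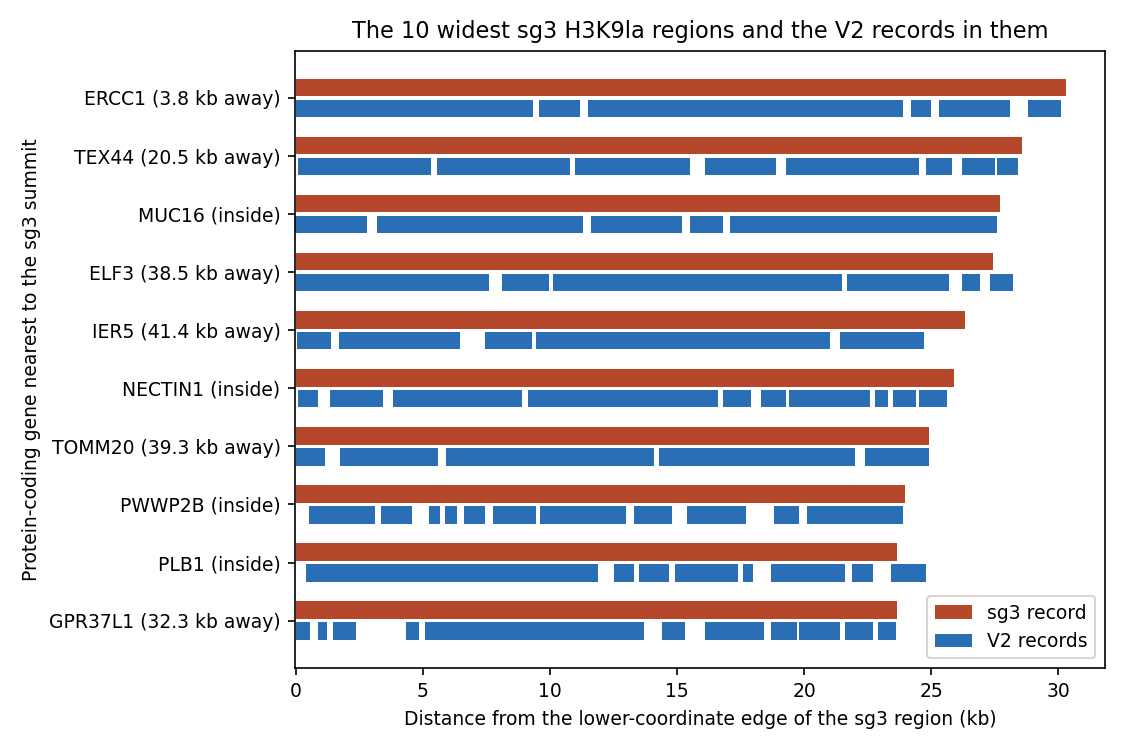
Each pair of bars is 1 of the 10 widest sg3 regions (red) with the V2 records that overlap it (blue), drawn by distance in kb from the lower-coordinate edge of the sg3 region. The rows name the protein-coding gene nearest to the sg3 summit. V2 covered 78.1% to 94.9% of these regions, in 5 to 11 separate records.

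The 10 regions with the highest -log10 q included none of the 10 widest. The highest was 201, for a region of 13670 bases in the body of TOM1L2, an endosomal sorting adaptor, which V2 covered to 92.0%. A value of 197 belonged to a region of 15511 bases with its summit 15168 bases from IRGC and 89.7% covered. The value of 195 was shared by a region of 12724 bases near NOTCH1, a receptor of the NOTCH pathway, and one of 8630 bases near MPRIP. Their summits lay 5052 and 28023 bases from these genes. V2 held the NOTCH1 region as a single record of 12224 bases over 96.1% of it, and the MPRIP region over 85.2%. The remaining ones lay in ST3GAL3 (187), nearest to CPN2 (180), DLG1 (180), CLDN4 (179), in EXD3 (177) and nearest to OPA1 (176), and their V2 coverage was between 80.4% and 98.0%. The region near CLDN4, which encodes a tight junction claudin, was 17028 bases wide and had its summit 2142 bases from the gene.

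Every broad sg3 region overlapped at least 1 V2 record, 745 of 745 (100%, interval from 99.5), and a count of 0 regions without V2 allows a share of up to 0.403%. Over all sg3 records 52.5% overlapped V2. V2 records covered a median of 78.9% of a broad region (95% interval of the median 77.2 to 80.5, middle 50% from 67.3 to 88.3, range 22.0 to 100). Over all their bases together the covered part was 78.0%, or 4.63 Mb, with 1.31 Mb not covered. At least 50% was covered in 692 regions (92.9%, 90.8 to 94.6), against 43.8% of all sg3 records. At least 75% was covered in 441 regions and at least 90% in 150 regions. The sg3 summit lay in a V2 record in 740 regions (99.3%, 98.4 to 99.8), against 50.4% of all sg3 records.

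V2 held these stretches in pieces. A broad region overlapped a median of 3 V2 records and at most 11. A single V2 record was found in 44 regions (5.91%), 2 in 164, 3 in 213, 4 in 170, 5 in 79, and 6 or more in 75. The widest V2 record in a region was at least 5 kb in 138 regions (18.5%) and under 2 kb in 179 (24.0%). The stretches without V2 numbered 3108 with a median length of 268 bases, and 285 of them were at least 1 kb. Of the uncovered bases 37.3% lay at the edges of the regions and the rest between V2 records. With V2 records that lay within 1 kb of each other joined, the median coverage was 94.4% and 607 regions (81.5%) held a single joined V2 region. The widest joined V2 region was then at least 5 kb in 630 regions (84.6%). The number of regions with a V2 stretch of 5 kb or more therefore depends on the joining.

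The V2 records in broad regions were also wide and strong within their own list. They numbered 2601, or 6.63% of the V2 records, and the V2 bases in broad regions were 15.2% of all V2 bases. Their median width was 1218 bases against 560 over all V2 records, their median fold enrichment 6.88 against 5.20, and their median -log10 q 25.5 against 12.6.

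Coverage by V2 was higher in wider sg3 records, and sg3 significance was higher there too. The median coverage was 0% for records under 1 kb, 51.4% for 1 to 2 kb, 66.9% for 2 to 5 kb, 77.2% for 5 to 10 kb and 86.5% for 10 kb or more. The median -log10 q of the same classes was 10.5, 23.1, 44.1, 78.7 and 112. Among sg3 records with a -log10 q of 60 to 110, the median coverage was 77.4% (75.7 to 79.4) in 368 broad regions and 78.9% (78.1 to 79.7) in 2356 records under 5 kb. In that band 100% of the broad regions and 99.4% of the narrower records overlapped V2. Within the broad regions, the median coverage was 68.5%, 76.5%, 78.9% and 87.6% in 4 groups of near equal size ordered from low to high -log10 q. In 4 groups ordered by width it was 76.2%, 77.1%, 77.4% and 83.1%. Spearman's rho across the 745 regions was 0.411 between coverage and -log10 q and 0.204 between coverage and width, and the regions share the libraries and neighbouring regions share loci.

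**Figure D2:**
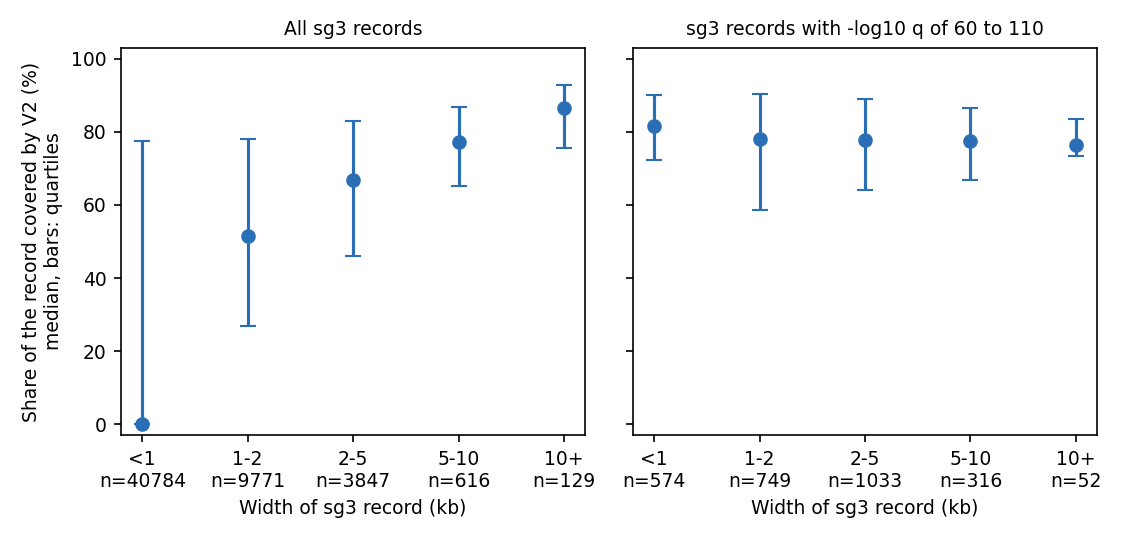
Points are the median share of an sg3 record covered by V2 records, in percent, for 5 classes of sg3 width in kb, and bars run from the lower to the upper quartile. Over all sg3 records (left) the medians rise from 0% to 86.5%, and among records with a -log10 q of 60 to 110 (right) they lie between 76.3% and 81.6%.

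Within a broad region the middle was covered more than the ends. V2 covered 58.4% of bases in the first 5% of the width, 84.1% at 45 to 50% and 57.7% in the last 5%. Coverage was 99.0% and 99.1% in the 200 bases on either side of the sg3 summit. At 400 to 600 bases from the summit it was 78.5% on the lower-coordinate side and 75.5% on the other. In the 200 bases before a transcript start it was 70.6%, against 81.0% in the 200 bases before those and 84.1% at 200 to 400 bases after the start.

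**Figure D3:**
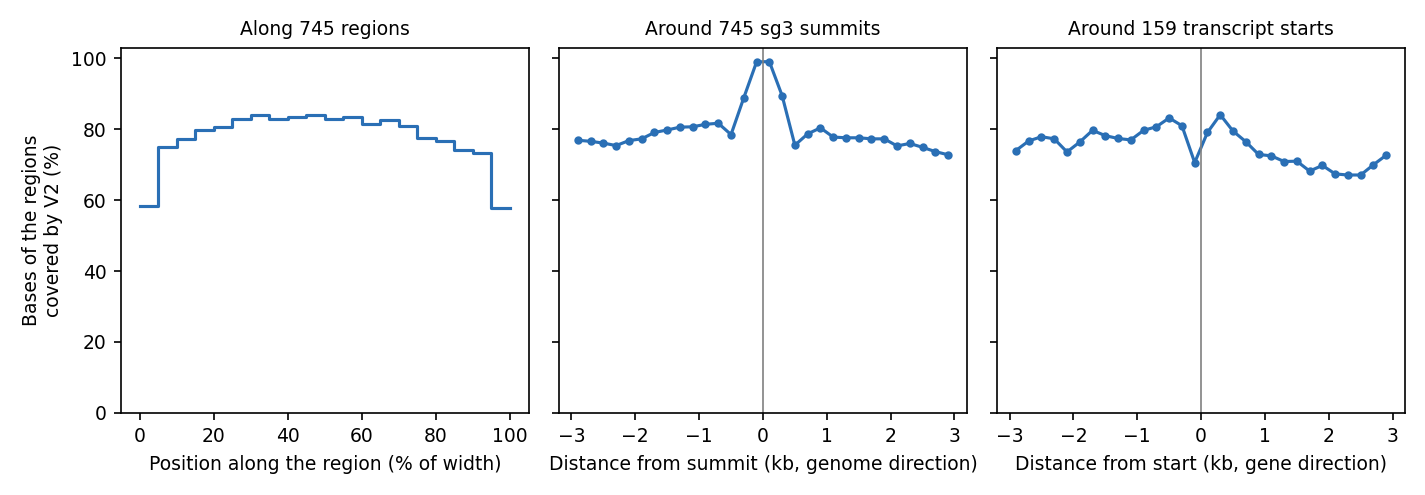
Lines give the share of bases of the broad sg3 regions covered by V2 records, in percent, along the width of 745 regions (left), by distance in kb from 745 sg3 summits (middle) and by distance in kb from 159 transcript starts in the direction of the gene (right). Coverage is 58.4% and 57.7% at the outer ends, about 99% at the summits and 70.6% in the 200 bases before transcript starts.

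The regions least covered by V2 lay in gene bodies and between genes, and those at PC and FUT3 held a transcript start. The lowest coverage was 22.0%, in a region of 7768 bases in PRODH, the mitochondrial proline dehydrogenase, at chr22:18926048-18933815, where a stretch of 3797 bases held no V2 record. The next were a region in PLA2G6, a calcium-independent phospholipase (24.4%), one 32521 bases from KIAA0232 (25.0%) and one in PC, the pyruvate carboxylase of mitochondria (25.8%). SH3PXD2A had 28.7%, TNFRSF1B 29.4%, FUT3 30.2%, SAP30BP 30.8%, a second region near NOTCH1 33.3% and EMP1 33.5%, where a gene is named as holding the region or as nearest to its summit. The -log10 q of these 10 regions in sg3 was between 24.9 and 73.2. Among the highest, PTPRH and a region 50208 bases from USP11 were covered to 100%, a second MUC16 region to 99.5% and VMP1 to 99.3%. The 2 regions near NOTCH1 differed, with 96.1% of the first covered and 33.3% of its neighbour, which began at 136561466 on chromosome 9.

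Broad regions were seldom centred on a gene end. A gene end here is either end of a RefSeq protein-coding gene, with 1 kb on each side. The midpoint lay there in 57 regions (7.65%, 5.85 to 9.80), in a gene body in 322 (43.2%, 39.6 to 46.9) and outside protein-coding genes in 366 (49.1%, 45.5 to 52.8). Over all sg3 records 17.7% of midpoints lay at a gene end, 40.0% in a gene body and 42.2% outside. The share at a gene end was 11.9% among records of 2 to 5 kb and 18.3% under 2 kb. With a window of 2.5 kb the share was 15.3% for broad regions and 25.5% for all sg3 records, and among regions of 10 kb or more it was 2.33% with the 1 kb window. Placed by the summit, 61 broad regions (8.19%) lay at a gene end, against 18.1% of all sg3 records. Transcript starts on chromosome 8 were not analysed here, and on the other chromosomes the summit lay within 1 kb of a start in 63 of 711 regions (8.86%, 6.88 to 11.2) against 16.8% of narrower sg3 records. The median distance from summit to start was 27937 bases.

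**Figure D4:**
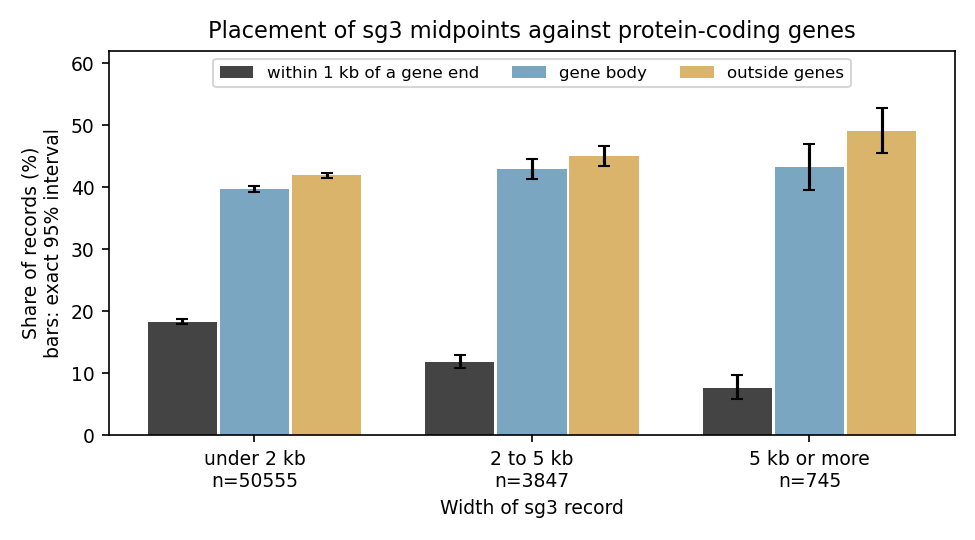
Bars give the share of sg3 records, in percent, whose midpoint lies within 1 kb of an end of a protein-coding gene, in a gene body or outside genes, for 3 classes of width, with exact 95% intervals. The share at gene ends is 18.3% under 2 kb, 11.9% at 2 to 5 kb and 7.65% at 5 kb or more.

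Being wide, a broad region could hold a gene end without being centred on it. An end of a protein-coding gene lay inside 150 regions (20.1%, 17.3 to 23.2), and 26 regions held ends of 2 or more genes. Another 267 regions (35.8%) lay in gene bodies with no end inside. The remaining 328 regions (44.0%) touched no protein-coding gene, with a median of 24526 bases from summit to the nearest gene, and 46 of them were over 100 kb away. Of these 328 regions, 127 touched a gene for a long non-coding RNA. Shares over all sg3 records are not given beside these counts, so they describe the broad regions alone. Among all 745, 22 regions held a whole protein-coding gene. The 24 genes held whole had a median length of 2555 bases, against 24170 over all protein-coding genes.

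In all, 174 protein-coding genes had an end inside a broad region, 0.871% of 19974. The number was 267 with regions of 4 kb or more, 51 with 10 kb or more, and 1072 with sg3 records within 1 kb joined. An end inside any sg3 record was found for 18.8% of genes. The 5 regions with the most gene ends held SNCG, ADIRF and LOC124902474 (V2 coverage 62.5%), S100A6, S100A5 and S100A4 of the S100 calcium-binding family (54.0%), PLK3, DYNLT4 and BTBD19 (80.6%), NSD1, RAB24 and PRELID1 (34.2%), and ERCC1 with FOSB (92.9%).

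The transcript starts inside broad regions often carried V2 signal too. Of 159 such starts outside chromosome 8, 113 lay in a V2 record (71.1%, 63.4 to 78.0), against 37.6% of 4260 starts inside sg3 records under 5 kb. Over all bases, V2 covered 78.0% of the broad regions and 46.1% of the sg3 records under 5 kb, so the contrast is not particular to starts. The 2 sets of starts were not matched for sg3 significance. V2 covered 78.8% of the bases of broad regions within 500 bases of a start and 77.9% of those farther away. In 107 regions that held starts of 1 gene, the region reached a median of 3292 bases upstream and 3654 bases downstream, and 55 (51.4%, 41.5 to 61.2) reached farther downstream. Single loci differed: the region at SH3TC1 reached 15649 bases upstream and 3450 downstream, while that at NR4A1, an immediate-early nuclear receptor, reached 562 upstream and 13499 downstream. SH3TC1 and NR4A1 were chosen after their values were seen.

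Gene lists of 10 functions relevant to squamous carcinoma, with 250 genes, were then read against the broad regions. Of these genes, 17 had an end inside one (6.80%, 4.01 to 10.7), where the background over all genes was 0.871%, and 107 (42.8%) had an end inside any sg3 record, where it was 18.8%. The same backgrounds apply to each list below. The lists were chosen with earlier results of these data known, so the counts are a description. The 17 genes became 26 with a margin of 1 kb around the regions, 6 with regions of 10 kb or more and 64 with sg3 records joined. They leave out NR4A1, KRT8 and SLC16A3 of these lists, which had a transcript start but neither gene end inside a broad region. Of 50 genes that mark other cell types (blood, neuron, liver, muscle, and endothelium with fibroblast), 1 had an end inside a broad region, the muscle gene TNNT3, and 6 (12.0%) inside any sg3 record.

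Of the AP-1 and immediate-early genes, which encode transcription factors and other early response proteins, 4 of 30 had an end inside a broad region, FOSB, JUNB, ZFP36 and ATF3, and 11 of 30 inside any sg3 record. JUNB lay at the end of a region of 15479 bases at chr19:12777815-12793293, most of which was upstream of JUNB and inside another gene, HOOK2. HOOK2 held 14536 bases of the region. V2 held that region as 5 records over 90.3%. The JUNB start at 12791486 fell between V2 records that ended at 12791329 and began at 12791789. ZFP36 lay at the end of a region of 10962 bases with 93.0% covered, and ATF3 in one of 9384 bases with 85.0% covered. Of the 4, the ATF3 start lay in a V2 record.

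Squamous and epithelial transcription factors gave 2 of 20 genes, OVOL1, a zinc finger transcription factor of epithelia, and GRHL3, a grainyhead factor of the epidermal barrier. OVOL1 lay with 92.3% of its length in a region of 11112 bases, covered to 81.4% by 5 V2 records. GRHL3 had a region at each end, of 8926 bases with 57.2% covered and of 7424 bases with 75.1% covered. The list of keratin, junction and basement membrane genes, which also holds S100A2, gave 3 of 36 (8.33%, 1.75 to 22.5), against 0.871% over all genes. None of the 3 was a junction or basement membrane gene. An end inside some sg3 record was found for 25 of the 36 (69.4%), against 18.8% over all genes. KRT17, a stress keratin, lay in a region of 7319 bases with 92.5% covered, KRT7 in one of 5479 bases with 77.5% covered and S100A2 in one of 7901 bases with 90.1% covered.

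The EGFR list, of EGFR-RAS-MAPK signalling and its feedback genes, gave 2 of 26 genes, both of them receptors. The EGFR start lay in a region of 5054 bases at chr7:55017627-55022680, where V2 held 1 record of 2310 bases and 45.7% was covered. EGFR had further regions in its body, of 6980 bases with 56.0% covered and 6878 bases with 72.9% covered. EPHA2, an ephrin receptor, lay in a region of 7832 bases with 40.9% covered, and its start lay in no V2 record. These receptor regions were thus below the median coverage of 78.9%. The NOTCH list gave 2 of 19 genes, both of the HES family: HES2 lay whole in a region of 15225 bases with 94.8% covered, and HES4 whole in one of 5252 bases with 79.6% covered.

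NF-kB and inflammatory genes gave 2 of 21, the cytokine LIF in a region of 16297 bases with 72.4% covered and the NF-kB cofactor BCL3 in one of 7337 bases with 62.3% covered. Hypoxia and glycolysis genes gave 1 of 32, NDRG1 (59.3%), and histone acyl writers and erasers 1 of 24, the acetyltransferase KAT8 (70.2%). SLC16A3 of the hypoxia and glycolysis list had transcript starts, but no gene end, inside a broad region of 5207 bases. None of 20 genes of the YAP-TEAD list and none of 24 cytosolic ribosomal protein genes had an end inside a broad region. The upper limits of these shares were 16.8% and 14.2%, so they cannot be told apart from the 0.871% over all genes. In each list 10 genes had an end inside some sg3 record.

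Because most broad regions lay outside gene ends, the protein-coding gene nearest to each summit was also read against the lists, a comparison added after the placement was seen. The nearest gene was on a functional list for 85 regions (11.4%, 9.22 to 13.9), against 4.70% of all sg3 records and 4.75% of the 2356 narrower records with a -log10 q of 60 to 110. Neighbouring regions that share a gene are counted singly in these shares. The AP-1 and immediate-early list was nearest to 23 regions (3.09%, against 0.961% of all sg3 records), which belonged to 13 of its 30 genes. The keratin and junction list was nearest to 23 regions as well (3.09%, against 0.736%), of 15 of its 36 genes. Squamous transcription factors were nearest to 9 (1.21%, 0.554 to 2.28, against 0.789%), the EGFR list to 11 (1.48% against 0.898%) and the ribosomal list to 0. The NOTCH list was nearest to 5 (0.671%, 0.218 to 1.56, against 0.212%). For hypoxia and glycolysis it was 6 (0.805%, 0.296 to 1.74, against 0.310%), and for NF-kB 4 (0.537%, 0.146 to 1.37, against 0.247%). The YAP-TEAD list was nearest to 3 (0.403% against 0.316%) and the histone acyl list to 1 (0.134% against 0.127%). The marker genes of other cell types were nearest to 3 regions (0.403% against 0.221%), 2 in VWF and 1 in TNNT3. Near IER5, regions of 8322, 5094 and 26308 bases followed each other from 181104161 to 181144204 on chromosome 1, and V2 covered 87.1%, 96.3% and 86.5% of them.

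Broad regions came in runs. When neighbours at most 10 kb apart were grouped, 121 runs held 289 of the 745 regions, and 27 runs held 3 or more. Another sg3 record of any width lay within 1 kb of 706 regions (94.8%). The run of most regions spanned 81267 bases at chr2:231601920-231683186, held 6 broad regions and touched no protein-coding gene, and V2 covered 92.0% of their bases. MUC16 also held a run of 6, over 67976 bases with 94.3% covered. The longest of the 5-region runs spanned 101814 bases at chr1:202017239-202119052 near ELF3, and 90.8% of the bases of its regions were covered by V2. A run of 5 at PLAUR, the urokinase receptor, and IRGC had 92.5% covered, and one of 5 regions far from any gene, with TOMM20 as the nearest, had 77.5%. A run of 4 in NIBAN2 had 82.6% covered.

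**Figure D5:**
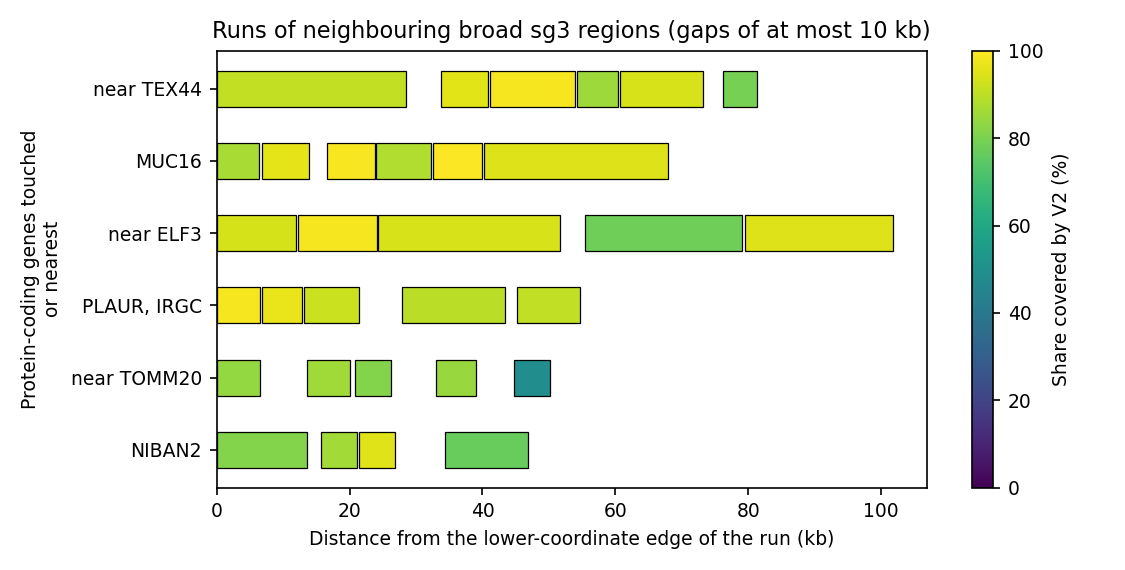
Each row is 1 of 6 runs of neighbouring broad sg3 regions, named by the genes it touches or, where it touches none, by the nearest gene, and each box is 1 region drawn by distance in kb from the lower-coordinate edge of the run. Colour gives the share of the region covered by V2 records in percent, which over all regions of a run lies between 77.5% and 94.3%.

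Several genes held many broad regions in their bodies. CMIP, a signalling adaptor, had 10, which together covered 28.8% of the gene. ST3GAL3, a sialyltransferase, had 7 (23.2%), MUC16 had 6 (25.0%) and TBCD, a tubulin cofactor, had 5 (18.7%). Among genes with 4, the covered part was 46.4% in NIBAN2 and 40.9% in PLA2G6. LMNA, the gene of nuclear lamins A and C, had 3 regions over 41.2% of its length. In all, 67 genes were touched by 2 or more regions and 17 by 3 or more. These genes were chosen by their number of regions, after the values were seen.

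The broad regions were spread unevenly over chromosomes. They made up 2.62% (2.04 to 3.31) of sg3 records on chromosome 19, 2.57% on chromosome 17, 2.26% on chromosome 22 and 1.88% on chromosome 1. On chromosomes 6, 13, 18 and X the share was 0.503%, 0.411%, 0.376% and 0.404%. Chromosome 1 had the most, 115. The median V2 coverage was 87.6% on chromosome 19 and 63.4% on chromosome 5.

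Read from the other side, V2 had 154 records of 5 kb or more, and 149 of them (96.8%, 92.6 to 98.9) overlapped a broad sg3 region. All 154 overlapped some sg3 record, and 122 (79.2%) lay in full inside one. The widest V2 record was 16219 bases, near ZSWIM4. The 5 that overlapped no broad sg3 region lay nearest to VMP1 (7581 bases), RAP2B (7534), PPP2R2A (6290), LIPH (5456) and NPEPPS (5303). Each of these lay over 2 sg3 records that together covered 96.3% to 97.7% of it. The split of a stretch into records was thus seen in both directions, but unevenly. A broad V2 record overlapped a median of 1 sg3 record (mean 1.10), and a broad sg3 region a median of 3 V2 records. With V2 records within 1 kb joined, V2 had 1520 regions of 5 kb or more, of which 36.7% overlapped a broad sg3 region. With sg3 records joined in the same way, sg3 had 2962, and V2 records as deposited covered a median of 49.3% of them.

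The 159 promoters with a start inside a broad region were last compared in sequence with the others in the RefSeq table, in which genes with several starts count once for each and chromosome 8 is not included. The AP-1 motif was found in 23 of them (14.5%, 9.40 to 20.9), against 5.54% of 4260 promoters with a start in a narrower sg3 record and 6.16% of all 22012 promoters. The TEAD motif was found in 13.8% (8.88 to 20.2), against 10.1% and 12.2%. The GC box was found in 66.7% (58.8 to 73.9), against 74.0% and 56.3%, and the CCAAT box in 20.8% (14.7 to 27.9), against 26.8% and 34.7%. The TATA box was found in 4.40%, against 4.27% and 9.49%. The median number of CG dinucleotides in the 300 bases was 18 in broad regions, 28 in narrower records and 21 over all promoters. The AP-1 match of S100A2 and the GC boxes of EGFR in the sequences above are examples, while the FOSB, JUNB, ZFP36 and ATF3 windows held no AP-1 match. A match describes these letters in a window of this length and is not a measured binding site.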

How the data were processed

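H3K9la ChIP-seq of KYSE30 cells gave 1 peak list for each of the arms sg3 and V2. Per the submitters' processing notes the tools were MACS2 2.2.9.1, Bowtie2 2.5.1, SAMtools 1.18, Trim Galore 0.6.10 and FastQC 0.12.1, with build hg38. Tool settings, read depth and the control library behind the peaks are not stated in those notes. A control IgG that the series design names was not analysed here. Each deposited record has the authors' fold enrichment (a ratio), -log10 p and -log10 q, an integer score and a summit offset. Of these, the fold enrichment and -log10 q served to describe and rank records within a list and the summit served as a position. The deposited score and -log10 p were not used.

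Records were used as deposited. Covered shares are bases under V2 records over bases of the sg3 region, computed with Python 3.11.15, NumPy 2.4.6, pandas 2.3.3 and SciPy 1.17.1. The functions that count covered bases, gaps and overlaps and that join records were checked on simulated records. Exact Clopper-Pearson 95% intervals were given for shares and order-statistic intervals for medians. The limit for a count of 0 is 3 counts of the total. Intervals treat regions as independent, which neighbours are not. Genes came from a RefSeq table of GRCh38.p14 without strand, with 19974 protein-coding genes, and transcript starts from RefSeq promoter sequences, which cover 15812 of them and were not analysed here for chromosome 8.

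The named regions and genes are the 10 widest regions, the 10 with the highest -log10 q, the 10 with the lowest and the 5 with the highest V2 coverage, the 5 with the most gene ends, up to 4 per gene list by region width, 3 records on each side of the width threshold, and up to 5 broad V2 records without a broad sg3 region. Others are said to be chosen after their values were seen, or stand in the run, chromosome, nearest-gene and whole-gene descriptions. An item that the rule takes is not reported here. The members and lists were chosen with earlier results of these data known. Alternatives changed the width threshold, the joining of records, the -log10 q threshold, the gene end window, the placing point, the overlap rule and the contigs.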

Additional observations from a re-analysis of the deposited data

Results flagged for a closer look

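The sg3 list also held 4 records of 5 kb or more on contigs other than chromosomes 1 to 22 and X, which the comparisons above do not use. They were singled out as signal in data outside the main measurement. They lay on alternate contigs of chromosomes 7, 6, 17 and 17, with widths of 7649, 6680, 6576 and 5496 bases, fold enrichments of 14.3, 13.8, 12.5 and 17.9, and -log10 q of 81.8, 67.4, 51.8 and 135.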

How the results depend on the processing

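The number of broad sg3 regions, 745, was 1151 at 4 kb or more, 129 at 10 kb or more and 2962 with sg3 records within 1 kb joined. The median V2 coverage was 73.9% with V2 records of -log10 q of 10 or more, 94.4% with V2 records joined within 1 kb, 86.5% at 10 kb or more, and 49.3% with sg3 records joined. The share of regions found in V2 was 92.9% when 50% had to be covered. The share with the midpoint at a gene end was 15.3% with a 2.5 kb window and 2.33% at 10 kb or more. Genes with an end inside numbered 267 at 4 kb or more, 51 at 10 kb or more and 1072 with sg3 records joined. V2 records of 5 kb or more numbered 1520 when joined, of which 36.7% overlapped a broad sg3 region, and at 4 kb or more 279, of which 86.0% did. Of the alternatives, joining sg3 records for the coverage, the placement and the genes, all contigs, the -log10 q limits and the joined V2 records on the share found in V2, and transcript starts in place of gene ends were chosen after seeing the data. Another 13 values stayed within 1.5 times or within their interval. Among counts of single gene lists and the V2 coverage of the 10 widest regions, 53 values stayed within the same limits and 45 moved. No paired analysis was possible because each arm has 1 ChIP library and 1 peak list. Read depth is unknown, so a depth difference between the arms and a difference in H3K9la cannot be told apart.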
